A study of Mus musculus with 18 samples.

Results

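The comparison described here is the diet effect common to Ctrl and LIRKO mice in sorted pancreatic beta cells, measured by RNA-seq in 18 of the 18 libraries of the series. It sets 8 libraries from mice on HFD, read as high-fat diet, against 10 from mice on chow, with genotype as a block. LIRKO mice lack the insulin receptor in the liver, and Ctrl mice are their controls. Ctrl gave 6 libraries on chow and 5 on HFD, and LIRKO gave 4 on chow and 3 on HFD. The sources used here do not state age, sex, strain, time on the diet or the promoter behind the liver deletion. Islets of all groups were kept overnight in culture, dispersed, and sorted by light scatter and by the cells' own fluorescence, so every library shares those steps. Whether libraries came from separate animals is not stated in the labels. A p-value therefore covers only how far these libraries vary, and some of that variation may be technical. A gene was counted as shared when it passed the additive test (adjusted p under 0.05) and its diet change had the same sign within Ctrl and within LIRKO.

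Beta cells make, store and release insulin. Proinsulin is folded in the endoplasmic reticulum (ER) with the help of chaperones, is cut by prohormone convertases in secretory granules, and is released when glucose metabolism closes potassium channels and calcium enters. A mature beta cell keeps this state through transcription factors such as PDX1, MAFA and NKX6-1. High-fat feeding and liver insulin resistance both raise the demand for insulin in mice, and beta cells are known to answer with more secretion, with growth, and in long-standing diabetes with loss of mature markers.

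Total counts ran from 19490235 to 51714775 per library, and Ins1 and Ins2 together held 8.97% to 18.7% of them. The summed level of 8 beta cell markers was 98600 to 232000 CPM (read counts scaled to a common library size with TMM factors, as all CPM here). Libraries 1 and 2 of Ctrl HFD stood apart, with the lowest totals and with 1.37% and 1.06% of counts on the nuclear RNA Malat1, against 0.0866% to 0.600% in the other 16. In LIRKO chow, libraries 1 and 2 were nearly identical, as were libraries 3 and 4. The scaled median absolute deviation of their log2 ratios was 0.0928 and 0.108, against 0.178 for the next closest pair within a group. It was taken over genes with a mean log2 CPM above 2. The insulin receptor gene Insr, deleted only in liver, cannot check the labels in these cells: it lay between 33.4 and 63.5 CPM in all groups.

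More genes rose than fell on HFD, and those that rose did so by more and at lower read support. Of 19284 genes tested, 5144 passed for diet (26.7%), 2885 higher (15.0%) and 2259 lower on HFD. The shared genes numbered 5139 (26.6%), of which 2880 rose (14.9%) and 2259 fell (11.7%). Among the genes that rose the median log2 change was 1.05, and 1528 of them (53.1%) rose at least 2-fold. Among those that fell it was -0.45, and 145 (6.42%) fell at least 2-fold. The median over all genes tested was 0.04. With upper quartile scaling it was 0.17, and the additive calls split into 4219 higher and 1179 lower. Read support differed as well: of the 6009 genes with a mean log2 CPM of at least 5, 244 were shared and higher and 1579 shared and lower. The shares over all genes, 14.9% higher and 11.7% lower, are the background for the gene lists below. For lists of well-expressed genes, these 6009 genes are the closer comparison. Protein-coding genes made up 68.8% of those that rose and 95.7% of those that fell, against 75.5% of all genes tested.

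A gene that passes an additive test will seldom have opposite signs in the genotypes, so the same sign among those calls is largely fixed by the choice: 5 of the 5144 had opposite signs. The within-genotype comparisons share no library. Diet passed for 1914 genes in Ctrl (9.93%), 1075 higher (5.57%) and 839 lower (4.35%), and for 392 in LIRKO (2.03%), 204 higher (1.06%) and 188 lower (0.975%). In both genotypes with the same sign 120 passed (0.622%), 57 higher (0.296%) and 63 lower (0.327%), which is 6.27% of the Ctrl calls and 30.6% of the LIRKO calls. Of the 1914 genes called in Ctrl, 1795 (93.8%) had the same sign in LIRKO. Of the 392 called in LIRKO, 357 (91.1%) had the same sign in Ctrl. Over all 19284 genes the sign was the same for 14660 (76.0%), and the correlation of the log2 changes across genes was r = 0.66, a description, since genes are not independent. These counts were unsteady: leaving out 1 library moved the Ctrl count between 69 and 3877 and the LIRKO count between 55 and 502. The LIRKO comparison rests on fewer libraries, and its smaller count does not show a smaller response. The test of the difference itself, the interaction of genotype and diet, passed for 1 gene, Etv5 (0.00519%).

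**Figure D1:**
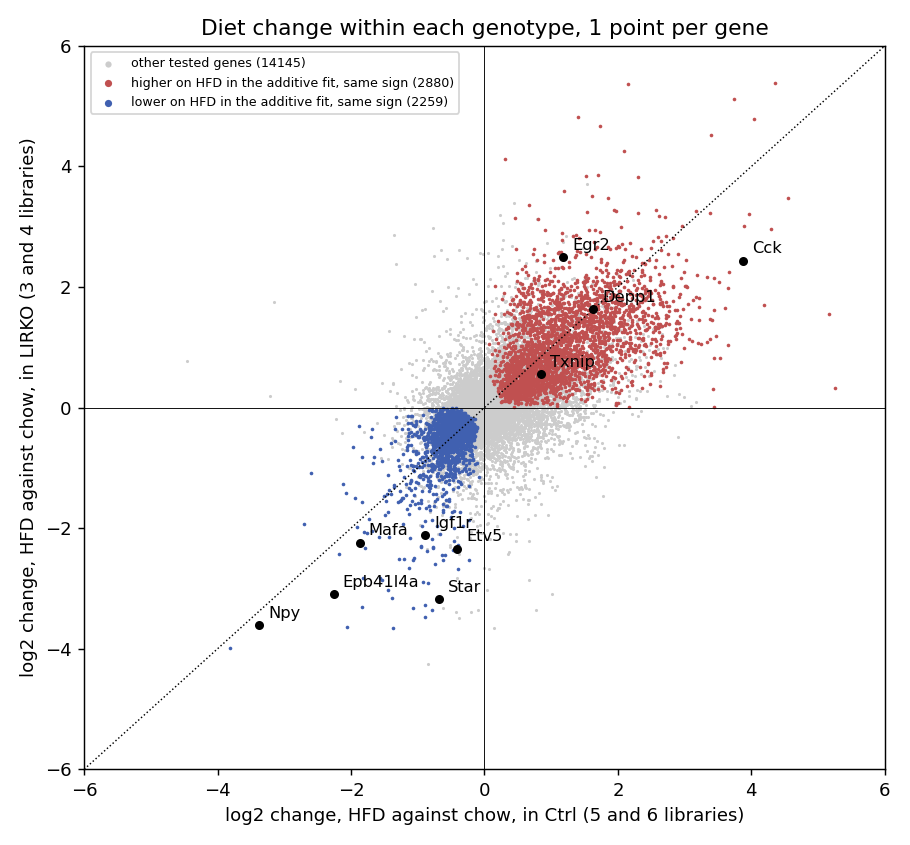
The log2 change on HFD against chow is plotted within Ctrl (x axis) and within LIRKO (y axis), 1 point for each of the 19284 genes tested, with the 2880 shared genes that rose in red and the 2259 that fell in blue; the dotted line marks equal change. The genes that fell lie in a compact cloud with a tail through Mafa, Epb41l4a and Npy, while the genes that rose spread widely, and Star and Etv5 lie below the line because they fell further in LIRKO.

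A stricter set asked each genotype to show the change alone at an unadjusted p under 0.05. It held 1586 of the shared genes (8.22% of those tested), 922 higher (4.78%) and 664 lower (3.44%). In 292 genes (1.51%) the HFD and chow libraries did not overlap in either genotype, and these leaned to falls, with 171 lower (0.887%) and 121 higher (0.627%). Within Ctrl alone the groups did not overlap for 3.56% of genes (1.43% higher and 2.13% lower), and within LIRKO alone, with its 7 libraries, for 34.4% (16.1% higher and 18.3% lower). A gap between the LIRKO groups is therefore common.

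Markers of endothelial cells, stellate cells and fibroblasts, and macrophages rose with HFD in both genotypes. All 17 endothelial markers were shared and higher (background 14.9%), with a median log2 change of 1.69 (1.69 in Ctrl and 1.75 in LIRKO). In Ctrl their summed level was 47.3 to 253 CPM on chow against 198 to 403 on HFD. For LIRKO it was 22.3 to 228 CPM on chow against 319 to 400 on HFD. Of 18 stellate cell and fibroblast markers 12 rose (median 2.04), with a sum of 18 to 53.8 CPM on chow against 43.1 to 140 on HFD in Ctrl. The LIRKO sums were 7.25 to 60 CPM against 91.2 to 112. Of 20 macrophage markers 12 rose (median 1.07), with sums of 209 to 439 CPM against 274 to 736 in Ctrl and of 144 to 354 against 461 to 601 in LIRKO. No marker of these 3 lists fell, and none of them was at 0 in every library. The part of these cells in the results below was not tested.

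The endocrine and acinar lists did not move in this way. Of 13 alpha cell markers 1 rose and 1 fell, of 9 delta cell markers tested 2 rose, of 5 PP cell markers tested 1 fell, and of 19 acinar markers tested none passed in edgeR (1 at an unadjusted p under 0.05, 0 in DESeq2 and 1 in limma voom), at a median of -0.63. The delta cell factor Hhex was at 0 throughout. Alpha cell sums reached 4790 CPM in Ctrl HFD and 4200 in LIRKO HFD, against at most 2360 and 2670 on chow, and overlapped between diets. Duct markers gave 1 rise and 1 fall among 11, lymphocyte markers 1 rise among 5, Schwann cell markers 2 rises and 1 fall among 4, and erythrocyte markers none among 2. Of 11 RNAs tied to cell isolation and RNA quality 3 rose, Malat1 among them. Malat1 was 2.44-fold higher on HFD (log2 1.28 ± 0.33, SE, adjusted p = 0.0137), and without Ctrl HFD libraries 1 and 2, which marked themselves out by it, its change was 0.61 (adjusted p = 0.0684). In bulk RNA, more cells of a type and more RNA per cell cannot be told apart.

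**Figure D2:**
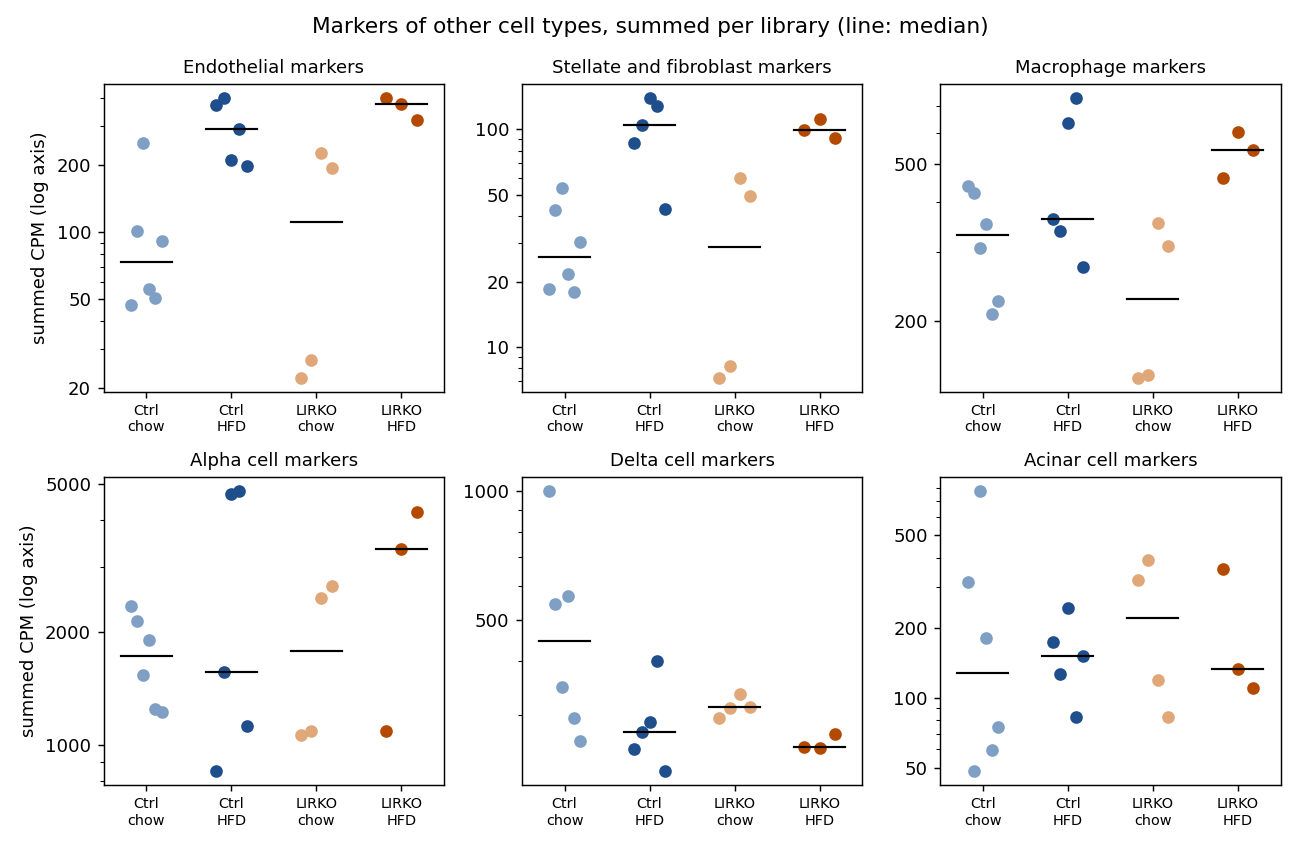
The summed CPM of 6 marker lists (y axis, log scale) is plotted for each library by group, 1 point per library with a line at the group median. Endothelial sums on HFD run from 198 to 403 CPM and on chow from 22.3 to 253, with Ctrl chow library 3 and LIRKO chow libraries 3 and 4 as the high chow libraries.

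Pecam1 (platelet and endothelial cell adhesion molecule, ENSMUSG00000020717, chr11:106654217-106750628, GRCm38) shows the pattern. Pecam1 stood at 2.87, 5.69 and 16.6 CPM as the lowest, median and highest of Ctrl chow, and at 25.7, 33.8, 19.2, 28.5 and 12.4 CPM in Ctrl HFD. LIRKO values of Pecam1 were 2.16, 3.12, 26.6 and 23 CPM on chow and 30.2, 54.2 and 47.3 CPM on HFD. It was 3.23-fold higher on HFD (log2 1.69 ± 0.42, SE, adjusted p = 0.0126), with chow and HFD overlapping in Ctrl but not in LIRKO, where chow libraries 1 and 2 lay far below libraries 3 and 4. Of the 15 largest named rises in the stricter set, most are genes of vessels and matrix: Mgp (matrix Gla protein, log2 2.19 ± 0.55), Fabp4 (2.15 ± 0.50), Emcn (1.97 ± 0.50), Sparc (1.96 ± 0.46), Eng (1.93 ± 0.44), Col15a1 (1.88 ± 0.45), Plvap (1.76 ± 0.43), Esm1 (1.76 ± 0.46), Thbs1 (1.72 ± 0.43), Epas1 (1.71 ± 0.35), Egfl7 (1.69 ± 0.38) and the progenitor filament gene Nes (1.65 ± 0.42). With Ctrl HFD libraries 1 and 2 left out, the calls of Mgp at 1.90 (adjusted p = 0.0668), Emcn at 1.60 (adjusted p = 0.0732), Esm1 at 1.55 (adjusted p = 0.0633) and Nes at 1.48 (adjusted p = 0.0515) were lost. Of the 15, Dhrs3 (a retinal reductase, 1.65 ± 0.25) was the only one to stay shared under 27 other settings (18 leaving out 1 library, 6 changing the scaling, tool or filter, and 3 leaving out Ctrl HFD libraries 1 and 2, summing the LIRKO chow pairs, or both).

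With the log2 of the endothelial sum added as a term, 1 gene of the 5139 still passed, Npy. Genes given by library differed in how far their log2 change moved. Pecam1 went from 1.69 to 0.08, which is largely fixed in advance because the term is built from endothelial markers. Id1 went from 1.85 to 0.64, Rest from 1.14 to 0.36 and Mafa from -2.01 to -1.15. Epb41l4a went from -2.56 to -1.81 and Igf1r from -1.35 to -0.89. Pcsk1 went from -1.28 to -1.08, Depp1 from 1.63 to 1.42 and Calr from -0.62 to -0.54. That term and diet move together across libraries. In some libraries they parted: Ctrl chow library 3, at 253 CPM, had a higher endothelial sum than Ctrl HFD libraries 3 and 5, at 212 and 198 CPM.

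Identity factors gave a mixed picture around 1 large fall. Of 17 tested, 3 fell and 2 rose (background 11.7% lower and 14.9% higher), with a median log2 change of -0.14. Mafa (an activator of insulin transcription and of other genes of the mature beta cell, ENSMUSG00000047591, chr15:75745490-75748228) fell furthest. Mafa stood at 32.9, 54.3 and 108 CPM as the lowest, median and highest of Ctrl chow, and at 6.95, 6.24, 22.1, 21 and 30.8 CPM in Ctrl HFD. LIRKO values of Mafa were 37.6, 45.9, 16.4 and 14.9 CPM on chow and 8.71, 4.36 and 5.19 CPM on HFD. Every HFD library lay below every chow library of its genotype, and LIRKO chow libraries 3 and 4, which had the higher endothelial sums there, were nearer to HFD than libraries 1 and 2. Mafa was 4.02-fold lower on HFD (log2 -2.01 ± 0.34, SE, adjusted p = 0.00213), or log2 -1.87 ± 0.44 in Ctrl and -2.24 ± 0.57 in LIRKO. Insm1 (a zinc finger factor of endocrine cells) fell by less, at log2 -0.52 ± 0.15. Isl1 (0.60 ± 0.14) and Mlxipl, which encodes the glucose-responsive factor ChREBP (1.07 ± 0.27), rose. Once Ctrl HFD libraries 1 and 2 were left out, the calls of Insm1, at -0.31 (adjusted p = 0.0535), and Mlxipl, at 0.74 (adjusted p = 0.0716), were lost, and Isl1 was at 0.37 (adjusted p = 0.0267).

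The other defining factors did not pass. Pdx1 had an additive log2 change of -0.36 ± 0.13 (adjusted p = 0.0528), with a mean of 138 CPM in Ctrl chow and 93.9 in Ctrl HFD, and of 73.7 and 70.9 in LIRKO. Nkx6-1 had 0.39 ± 0.21 (adjusted p = 0.163), and its sign turned without Ctrl HFD libraries 1 and 2, which read 634 and 712 CPM against 195 to 259 in the other Ctrl HFD libraries. Ucn3, a peptide of mature beta cells, had -0.31 ± 0.25 (adjusted p = 0.348).

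Genes for maturing and storing insulin fell, while the insulin genes did not pass with all libraries. Ins1 had an additive log2 change of -0.44 ± 0.20 (adjusted p = 0.0992) and Ins2 of -0.33 ± 0.18 (adjusted p = 0.173). In the fit without Ctrl HFD libraries 1 and 2, Ins1 passed, at -0.69 (adjusted p = 0.0229). Of 21 genes of the granule and prohormone list, 8 fell and 1 rose (background 11.7% lower and 14.9% higher). Of the 6009 genes with a mean log2 CPM of at least 5, 1579 were shared and lower. The median of the granule and prohormone list was -0.38 (-0.42 in Ctrl and -0.40 in LIRKO). Pcsk1 (prohormone convertase 1/3, which makes the first cuts in proinsulin, ENSMUSG00000021587, chr13:75089826-75134861) carried the largest fall of that list. Pcsk1 stood at 211, 433 and 696 CPM as the lowest, median and highest of Ctrl chow, and at 89.8, 102, 332, 258 and 250 CPM in Ctrl HFD. LIRKO values of Pcsk1 were 520, 571, 541 and 537 CPM on chow and 212, 164 and 218 CPM on HFD. Ctrl groups overlapped through 1 chow library at 211 CPM, and the LIRKO groups did not. Pcsk1 was 2.43-fold lower on HFD (log2 -1.28 ± 0.25, SE, adjusted p = 0.00434), and with the endothelial term it had -1.08 (adjusted p = 0.605).

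G6pc2 (the islet glucose-6-phosphatase, ENSMUSG00000005232, chr2:69211073-69227841) fell too. G6pc2 stood at 1070, 1270 and 1720 CPM as the lowest, median and highest of Ctrl chow, and at 617, 792, 756, 639 and 909 CPM in Ctrl HFD. LIRKO values of G6pc2 were 1260, 1350, 1070 and 1040 CPM on chow and 1030, 514 and 607 CPM on HFD. No HFD library reached its chow group in either genotype, though LIRKO HFD library 1 came close. G6pc2 was 1.75-fold lower on HFD (log2 -0.81 ± 0.14, SE, adjusted p = 0.00286). Ero1lb, an ER oxidase of proinsulin folding (log2 -0.75 ± 0.14), and Ptprn, a membrane protein of the granule (-0.51 ± 0.10), fell as well.

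In the list of glucose sensing and exocytosis, 7 of 22 genes fell and none rose. Over all genes tested 11.7% were shared and lower, as were 1579 of the 6009 with a mean log2 CPM of at least 5. This list had a median of -0.21, or -0.09 with upper quartile scaling. Sytl4 (granuphilin, which docks insulin granules at the plasma membrane, ENSMUSG00000031255, chrX:133936385-133981812) fell most. Sytl4 stood at 363, 519 and 773 CPM as the lowest, median and highest of Ctrl chow, and at 156, 138, 361, 291 and 317 CPM in Ctrl HFD. LIRKO values of Sytl4 were 404, 425, 302 and 318 CPM on chow and 162, 114 and 157 CPM on HFD. The gap between the Ctrl groups was narrow, from 361 to 363 CPM, and wide in LIRKO. Sytl4 was 2.3-fold lower on HFD (log2 -1.2 ± 0.20, SE, adjusted p = 0.00202). Trpm5 (a cation channel gated by calcium, log2 -1.15 ± 0.25) and Chrm3 (the muscarinic receptor through which acetylcholine raises secretion, -0.50 ± 0.10) fell. Slc2a2, the glucose transporter GLUT2, was 1.79-fold lower on HFD (log2 -0.84 ± 0.26, SE, adjusted p = 0.027), with overlapping groups in both genotypes, but at -0.69 (adjusted p = 0.12) without Ctrl HFD libraries 1 and 2. Glp1r, the receptor for the incretin GLP-1, did not pass (-0.63 ± 0.36, adjusted p = 0.188).

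Mlph (melanophilin, which ties RAB27A on granules to a myosin motor, ENSMUSG00000026303, chr1:90915085-90951142) is outside those lists and was among the 15 largest named falls. Mlph stood at 17.2, 25.3 and 40.6 CPM as the lowest, median and highest of Ctrl chow, and at 5.46, 5.68, 13.4, 11.3 and 12.7 CPM in Ctrl HFD. LIRKO values of Mlph were 12, 12.5, 9.9 and 9.83 CPM on chow and 2.18, 3.47 and 4.26 CPM on HFD. Chow and HFD did not overlap in either genotype. Mlph was 2.93-fold lower on HFD (log2 -1.55 ± 0.20, SE, adjusted p = 0.000539).

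Epb41l4a (a FERM-domain protein of the band 4.1 family, ENSMUSG00000024376) had the largest fall in the stricter set among genes with a mean log2 CPM of at least 2. Epb41l4a stood at 9.09, 20.7 and 24.6 CPM as the lowest, median and highest of Ctrl chow, and at 2.33, 1.58, 5.77, 4.53 and 5.23 CPM in Ctrl HFD. LIRKO values of Epb41l4a were 12.3, 12.3, 8.07 and 7.66 CPM on chow and 0.493, 1.57 and 1.43 CPM on HFD. Every HFD library was below every chow library of its genotype, with the lowest 3 values of the series in LIRKO HFD. Epb41l4a was 5.91-fold lower on HFD (log2 -2.56 ± 0.30, SE, adjusted p = 0.000233), or log2 -2.26 ± 0.36 in Ctrl and -3.10 ± 0.48 in LIRKO. The interaction for this gene had an adjusted p of 0.973. Nrcam, a neuronal adhesion protein also made by beta cells, fell by 1.73 on the log2 scale (SE 0.33).

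The other large falls span channels, enzymes and polarity genes. Mcoln3 (a lysosomal cation channel) had log2 -1.98 ± 0.31, Kcnf1 (a modulatory potassium channel subunit) -1.79 ± 0.31, Ipcef1 -1.68 ± 0.30, Fam196a -1.49 ± 0.23 and Pard6g (a cell polarity protein) -1.35 ± 0.22. Maob (monoamine oxidase B) had -1.34 ± 0.22, Fmo1 (a flavin monooxygenase) -1.32 ± 0.22, Msln (mesothelin) -1.31 ± 0.32 and Ttyh1 (a chloride channel family member) -1.31 ± 0.26. Of the 15 named falls, Star (the protein that carries cholesterol into mitochondria) differed most between genotypes in its values, at log2 -0.68 ± 0.32 in Ctrl and -3.18 ± 0.45 in LIRKO, but the difference did not pass (adjusted p = 0.167). Star was at -1.41 (adjusted p = 0.0544) without Ctrl HFD libraries 1 and 2.

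**Figure D3:**
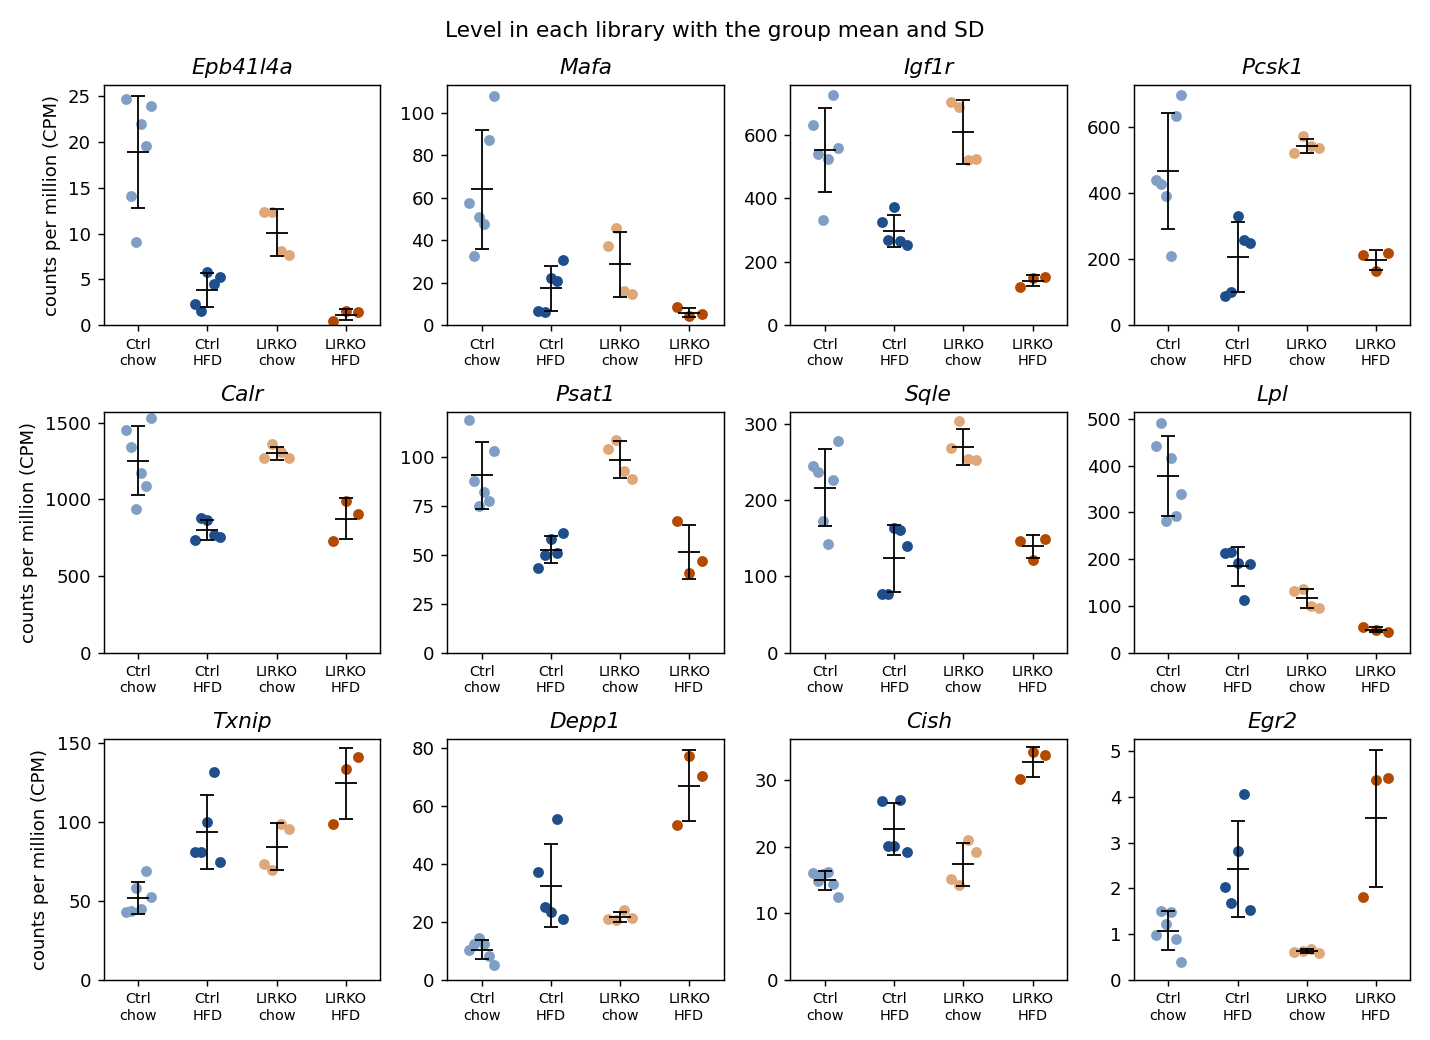
The CPM (y axis, from 0) of 12 genes is plotted for each library in the 4 groups, with the group mean and SD in black. The 8 genes of the upper panels lie lower on HFD in both genotypes and the 4 of the bottom row higher, and Mafa shows LIRKO chow libraries 3 and 4 apart from 1 and 2 while in Calr and Pcsk1 the 4 lie together.

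Genes for folding proteins in the ER fell together. Of 30 tested genes for ER chaperones and for degradation of misfolded proteins, 21 fell and none rose. The background was 11.7% lower, or 1579 of the 6009 genes with a mean log2 CPM of at least 5. The ER list had a median log2 change of -0.44 (-0.38 in Ctrl and -0.58 in LIRKO). Without Ctrl HFD libraries 1 and 2, 12 fell, with the LIRKO chow pairs summed 14, and with both changes 3, at medians of -0.36, -0.43 and -0.35. With the endothelial term none passed, at a median of -0.39. Many of these genes are known to be induced when unfolded protein builds up in the ER.

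The ER stress response element is the best known control sequence of these genes, and 3 stretches that hold it are shown because the genes fell together. The letters searched were CCAAT, then any 9 bases, then CCACG, on both strands, in windows from 250 bases before to 50 after the start of each gene (RefSeq, GRCm38.p6). It was found in 37 of 27025 genes (0.137%) and in 9 of the 27 ER genes with a window (33.3%), of which 7 were shared and lower. In the whole ER list 21 of 30 tested genes were shared and lower. A match is a description of letters, not a site in use. The stretches run 5′ to 3′ along the gene, with the match in capitals, and on the reverse strand in Calr. They lie at chr2:34771980-34772088 on the plus strand for Hspa5, chr8:84847030-84847138 on the minus strand for Calr and chr12:17266446-17266554 on the plus strand for Pdia6.
Hspa5: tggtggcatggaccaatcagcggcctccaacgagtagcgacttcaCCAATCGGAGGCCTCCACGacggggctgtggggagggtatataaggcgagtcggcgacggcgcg
Calr: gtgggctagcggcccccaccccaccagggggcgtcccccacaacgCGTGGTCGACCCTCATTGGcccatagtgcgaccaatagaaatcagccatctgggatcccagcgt
Pdia6: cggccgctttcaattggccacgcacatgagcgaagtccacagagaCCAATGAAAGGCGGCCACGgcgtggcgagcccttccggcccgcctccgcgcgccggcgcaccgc

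Calr (calreticulin, a calcium-binding lectin chaperone, ENSMUSG00000003814) is a member of that list. Calr stood at 940, 1260 and 1530 CPM as the lowest, median and highest of Ctrl chow, and at 738, 877, 867, 765 and 757 CPM in Ctrl HFD. LIRKO values of Calr were 1270, 1360, 1310 and 1270 CPM on chow and 731, 991 and 904 CPM on HFD. Both genotypes had HFD wholly below chow, and the LIRKO chow libraries lay within 1270 to 1360 CPM. Calr was 1.54-fold lower on HFD (log2 -0.62 ± 0.10, SE, adjusted p = 0.00213). Pdia6 (a disulfide isomerase, ENSMUSG00000020571) fell in the same way. Pdia6 stood at 476, 603 and 799 CPM as the lowest, median and highest of Ctrl chow, and at 247, 324, 441, 465 and 388 CPM in Ctrl HFD. LIRKO values of Pdia6 were 867, 906, 929 and 876 CPM on chow and 461, 533 and 541 CPM on HFD. Its groups overlapped in neither genotype, and it was 1.7-fold lower on HFD (log2 -0.76 ± 0.13, SE, adjusted p = 0.00206).

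Hspa5 (BiP, the main HSP70 chaperone of the ER, ENSMUSG00000026864) showed more spread. Hspa5 stood at 1460, 2110 and 2510 CPM as the lowest, median and highest of Ctrl chow, and at 964, 1230, 1780, 2260 and 1400 CPM in Ctrl HFD. LIRKO values of Hspa5 were 2710, 2900, 3140 and 3000 CPM on chow and 1550, 1850 and 2080 CPM on HFD. In Ctrl the groups overlapped, with HFD libraries 3 and 4 at 1780 and 2260 CPM above the lowest chow library at 1460 CPM. In LIRKO they did not. Hspa5 was 1.47-fold lower on HFD (log2 -0.56 ± 0.15, SE, adjusted p = 0.0168), and without Ctrl HFD libraries 1 and 2 it was at -0.41 (adjusted p = 0.0787). Sdf2l1, a partner of BiP (log2 -0.77 ± 0.13), and Derl1, of the channel that exports misfolded proteins (-0.42 ± 0.09), also fell.

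Genes of the amino acid response fell together with the chaperones. Of 28 genes in the list of ATF4 targets and amino acid genes, 18 fell and none rose, with a median of -0.45 (-0.24 in Ctrl and -0.60 in LIRKO). Of 20 aminoacyl-tRNA synthetases, which load amino acids onto tRNA, 14 fell and none rose, with a median of -0.42. The background was 11.7% lower, or 1579 of the 6009 genes with a mean log2 CPM of at least 5. Without Ctrl HFD libraries 1 and 2, 8 of each list fell, with the pairs summed 12 and 10, and with both changes 3 and 1. None passed with the endothelial term, at medians of -0.33 and -0.34. ATF4 is the factor that raises these genes when translation is slowed by stress or lack of amino acids.

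ATF4 binds composite elements with the core TGATGNAA, searched on both strands in the same windows and found in 1219 of 27025 genes (4.51%). It was present in 9 of 25 genes of the ATF4 list with a window (36.0%) and in 5 of 12 synthetases (41.7%), and 5 of each were shared and lower. In the whole lists 18 of 28 and 14 of 20 tested genes were shared and lower. Whether a match goes with a fall was not tested. The 3 stretches below are from genes of these lists that fell, with the match, on the reverse strand in each, in capitals. They lie at chr15:11399659-11399718 on the minus strand for Tars, chr6:55037926-55038000 on the plus strand for Gars and chr2:119351004-119351101 on the plus strand for Chac1.
Tars: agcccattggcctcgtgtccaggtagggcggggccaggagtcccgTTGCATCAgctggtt
Gars: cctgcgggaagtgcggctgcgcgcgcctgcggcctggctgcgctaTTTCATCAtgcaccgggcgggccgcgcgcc
Chac1: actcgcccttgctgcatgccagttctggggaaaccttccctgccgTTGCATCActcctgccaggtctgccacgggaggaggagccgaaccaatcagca

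Psat1 (phosphoserine aminotransferase, of serine synthesis, ENSMUSG00000024640, chr19:15904678-15947337) shows the pattern in the ATF4 list. Psat1 stood at 74.8, 84.8 and 119 CPM as the lowest, median and highest of Ctrl chow, and at 43.3, 50, 58.2, 51 and 61.3 CPM in Ctrl HFD. LIRKO values of Psat1 were 104, 109, 92.9 and 88.6 CPM on chow and 67.2, 40.6 and 46.8 CPM on HFD. Neither genotype had overlapping groups. Psat1 was 1.79-fold lower on HFD (log2 -0.84 ± 0.12, SE, adjusted p = 0.000711), or log2 -0.78 ± 0.15 in Ctrl and -0.94 ± 0.19 in LIRKO. Psph, which completes serine synthesis (log2 -1.04 ± 0.15), Mthfd2, a mitochondrial folate enzyme (-0.47 ± 0.08), and Chac1, which degrades glutathione (-0.44 ± 0.09), fell too.

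Wars (tryptophanyl-tRNA synthetase, ENSMUSG00000021266, chr12:108860030-108894174) fell further in LIRKO by value. Wars stood at 162, 242 and 323 CPM as the lowest, median and highest of Ctrl chow, and at 158, 168, 203, 178 and 164 CPM in Ctrl HFD. LIRKO values of Wars were 306, 330, 312 and 301 CPM on chow and 129, 149 and 143 CPM on HFD. Ctrl groups overlapped through 1 chow library at 162 CPM, and LIRKO groups were well apart. Wars was 1.67-fold lower on HFD (log2 -0.74 ± 0.14, SE, adjusted p = 0.00323), and the interaction had an adjusted p of 0.722. Tars (threonyl-tRNA synthetase, ENSMUSG00000022241) behaved alike. Tars stood at 117, 164 and 175 CPM as the lowest, median and highest of Ctrl chow, and at 86.3, 89.4, 134, 129 and 104 CPM in Ctrl HFD. LIRKO values of Tars were 156, 169, 174 and 173 CPM on chow and 98.3, 96.9 and 109 CPM on HFD. The Ctrl groups met at 117 to 134 CPM and the LIRKO groups did not. Tars was 1.51-fold lower on HFD (log2 -0.59 ± 0.11, SE, adjusted p = 0.0029), and 1 other setting ended the call. Gars (-0.50 ± 0.10) and Hars (-0.42 ± 0.09) also fell.

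Of 26 antioxidant genes 6 fell and none rose. Over all genes tested 11.7% were shared and lower, as were 1579 of the 6009 with a mean log2 CPM of at least 5. The antioxidant list had a median of -0.16, or -0.02 with upper quartile scaling. Srxn1 (sulfiredoxin, log2 -0.63 ± 0.12), Gclm (a subunit of the enzyme that begins glutathione synthesis, -0.61 ± 0.14), Gsr (glutathione reductase, -0.44 ± 0.09) and Txnrd1 (thioredoxin reductase, -0.43 ± 0.12) fell. Txnrd1 had -0.28 (adjusted p = 0.0873) without Ctrl HFD libraries 1 and 2.

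Many genes of cholesterol synthesis fell, with a smaller median change in LIRKO than in Ctrl. Of 26 genes of synthesis and uptake, 16 fell and none rose. The background was 11.7% lower, or 1579 of the 6009 genes with a mean log2 CPM of at least 5. The cholesterol list had a median of -0.41 (-0.49 in Ctrl and -0.22 in LIRKO). Without Ctrl HFD libraries 1 and 2, 8 fell, with the pairs summed 13, with both 2, and with the endothelial term none, at a median of -0.27. Sqle (squalene epoxidase, a rate-limiting step of the pathway, ENSMUSG00000022351, chr15:59315077-59331192) is an example. Sqle stood at 142, 231 and 277 CPM as the lowest, median and highest of Ctrl chow, and at 77.4, 76.3, 164, 161 and 140 CPM in Ctrl HFD. LIRKO values of Sqle were 268, 304, 254 and 252 CPM on chow and 147, 122 and 149 CPM on HFD. Ctrl HFD libraries 1 and 2 were the lowest of the series, and Ctrl groups overlapped through a chow library at 142 CPM. Sqle was 1.82-fold lower on HFD (log2 -0.86 ± 0.16, SE, adjusted p = 0.0038). Msmo1 (log2 -0.71 ± 0.14), Cyp51 (-0.55 ± 0.12) and Lss (-0.52 ± 0.12), enzymes of the later steps, fell as well. The LIRKO groups of Msmo1 and Cyp51 overlapped through HFD library 1, at 109 and 89.9 CPM.

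Fatty acid genes split. In the list of synthesis and storage 9 of 26 fell and 4 rose (median -0.27). In that of oxidation and PPAR targets 4 of 26 fell and 5 rose (median -0.03, with a sign that turned in 4 other settings). The background was 11.7% lower and 14.9% higher. Lpl (lipoprotein lipase, which frees fatty acids from circulating triglyceride, ENSMUSG00000015568, chr8:68880491-68907448) is a member of the synthesis and storage list. Lpl stood at 282, 378 and 492 CPM as the lowest, median and highest of Ctrl chow, and at 214, 215, 192, 113 and 189 CPM in Ctrl HFD. LIRKO values of Lpl were 132, 136, 100 and 95.4 CPM on chow and 54.3, 49.3 and 43.8 CPM on HFD. The groups overlapped in neither genotype, and LIRKO chow lay below all of Ctrl HFD except library 4. Lpl was 2.16-fold lower on HFD (log2 -1.11 ± 0.14, SE, adjusted p = 0.00049), or log2 -1.03 ± 0.18 in Ctrl and -1.24 ± 0.24 in LIRKO. Scd1, the stearoyl-CoA desaturase, was at log2 -1.84 ± 0.33 in Ctrl and -0.82 ± 0.42 in LIRKO, and 2.73-fold lower on HFD (log2 -1.45 ± 0.28, SE, adjusted p = 0.00444) in the additive fit. Elovl6, which lengthens palmitate, fell by 0.62 on the log2 scale (SE 0.11). Hadha, of mitochondrial beta oxidation (-0.34 ± 0.08), and Pparg (-0.49 ± 0.12) fell, and the monoglyceride lipase Mgll rose (1.78 ± 0.38). Cpt1a (-0.28 ± 0.15, adjusted p = 0.158), Plin2 (0.21 ± 0.14, adjusted p = 0.257) and Pdk4 (1.30 ± 0.64, adjusted p = 0.128), which often respond to fatty acids, did not pass.

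Targets of the glucose sensors ChREBP and MondoA went both ways, with 3 of 14 higher and 3 lower (median -0.07, with a sign that turned in 6 other settings). Txnip (thioredoxin-interacting protein, induced by glucose, ENSMUSG00000038393, chr3:96557957-96561883) rose. Txnip stood at 42.9, 48.7 and 69.1 CPM as the lowest, median and highest of Ctrl chow, and at 80.8, 81.1, 99.9, 132 and 74.4 CPM in Ctrl HFD. LIRKO values of Txnip were 73.7, 69.8, 98.7 and 95.4 CPM on chow and 98.6, 134 and 141 CPM on HFD. In Ctrl every HFD library was above every chow library, and in LIRKO they overlapped by 0.1 CPM between 98.6 and 98.7. Txnip was 1.67-fold higher on HFD (log2 0.74 ± 0.13, SE, adjusted p = 0.003). Mlx, the partner of both sensors, fell (-0.54 ± 0.13), and was at -0.36 (adjusted p = 0.0293) without Ctrl HFD libraries 1 and 2.

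Glycolysis and respiration had a share of falls near the 11.7% over all genes tested. It was below that of the 6009 genes with a mean log2 CPM of at least 5, where 1579 fell. Of 30 gene IDs of glycolysis and hypoxia 3 fell and 1 rose (median -0.34), with Ndrg1 at log2 -0.64 ± 0.13, Gapdh at -0.71 ± 0.22 and Pkm at -0.49 ± 0.16. With Ctrl HFD libraries 1 and 2 left out, Gapdh was at -0.57 (adjusted p = 0.12) and Pkm at -0.37 (adjusted p = 0.146), and their calls were lost in 7 and 12 of the 27 other settings. Of 50 nuclear subunits of oxidative phosphorylation 7 fell and none rose (median -0.13), among them Atp5b (-0.51 ± 0.13) and Uqcrc2 (-0.59 ± 0.18), both lost without Ctrl HFD libraries 1 and 2 at -0.34 (adjusted p = 0.0634) and -0.35 (adjusted p = 0.0855), and the median turned sign in 2 other settings. Of 7 mitochondrially encoded mRNAs tested 1 fell (median -0.45). None of 60 cytosolic ribosomal protein genes passed in edgeR (2 at an unadjusted p under 0.05, 2 in DESeq2 and 1 in limma voom), with a median of 0.17 that turned sign in 4 other settings. None of 31 interferon and class I genes passed in edgeR (1 at an unadjusted p under 0.05, 0 in DESeq2 and 1 in limma voom), with a median of -0.09 that turned sign in 7.

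**Figure D4:**
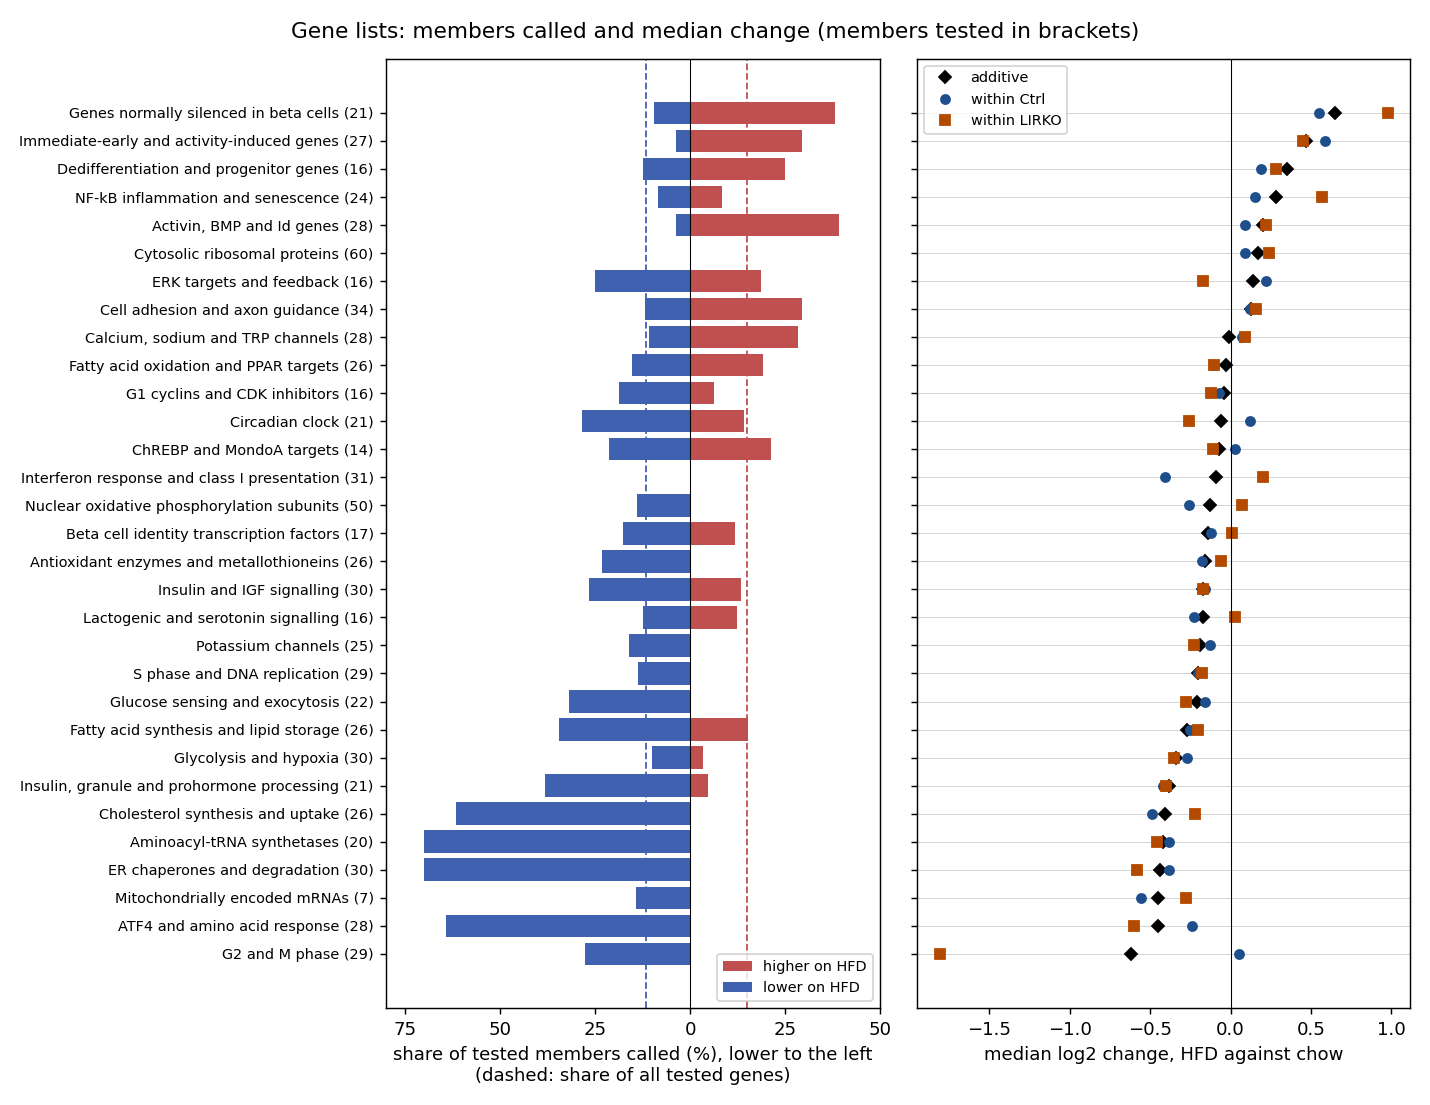
For each of 31 gene lists, bars give the share of tested members that were shared and lower (left, blue) or higher (right, red) with dashed lines at the shares over all genes tested, 11.7% and 14.9%, and symbols give the median log2 change in the additive fit, in Ctrl and in LIRKO. ER chaperones, synthetases, the ATF4 list and cholesterol synthesis stand out on the left, and the list of G2 and M phase has a median of 0.05 in Ctrl and -1.81 in LIRKO.

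In insulin and IGF signalling the largest fall was in a receptor. Of 30 genes tested 8 fell and 4 rose (background 11.7% lower and 14.9% higher). Among the 6009 genes with a mean log2 CPM of at least 5 a similar share fell, 1579. The list had a median of -0.17. Igf1r (the receptor for insulin-like growth factor 1, ENSMUSG00000005533, chr7:67952827-68233668) fell most. Igf1r stood at 331, 548 and 726 CPM as the lowest, median and highest of Ctrl chow, and at 325, 270, 372, 264 and 252 CPM in Ctrl HFD. LIRKO values of Igf1r were 704, 688, 520 and 522 CPM on chow and 120, 149 and 152 CPM on HFD. All LIRKO HFD libraries lay below every other library of the series, and in Ctrl the groups overlapped through chow library 3 at 331 CPM and HFD library 3 at 372 CPM. Igf1r was 2.54-fold lower on HFD (log2 -1.35 ± 0.20, SE, adjusted p = 0.00103), at log2 -0.89 ± 0.18 in Ctrl and -2.12 ± 0.23 in LIRKO, and the interaction did not pass (adjusted p = 0.315). Grb10, an adaptor that restrains both receptors, fell (-0.84 ± 0.21). Igf1 (1.54 ± 0.36) and the kinase subunit Pik3cd (0.86 ± 0.20) rose, with the values of Igf1 under 2 CPM in every library. Insr did not pass (-0.10 ± 0.11, adjusted p = 0.538), and its sign turned in 3 other settings.

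Some cell cycle genes fell. Of 29 G2 and M phase genes 8 fell and none rose (background 11.7% lower). The median was 0.05 in Ctrl and -1.81 in LIRKO. Ccnb1 (cyclin B1, log2 -1.62 ± 0.40), Bub1 (-1.94 ± 0.54), Tpx2 (-1.43 ± 0.39) and Nuf2 (-1.33 ± 0.39), of the mitotic spindle and its checkpoint, fell in the additive fit. Within Ctrl, Bub1 (-1.07), Tpx2 (-0.74) and Nuf2 (-0.63) had unadjusted p-values of 0.0884, 0.0783 and 0.145. Within LIRKO they had -3.32, -2.60 and -2.44. Ccnb1 had -1.05 in Ctrl (unadjusted p = 0.036) and -2.50 in LIRKO. The interaction passed for none of the genes named here. Levels were low, with at most 1.42 CPM of Bub1 and 2.08 of Ccnb1. Once Ctrl HFD libraries 1 and 2 were left out, the calls of Tpx2 at -1.27 (adjusted p = 0.0599), Bub1 at -1.80 (adjusted p = 0.0573) and Nuf2 at -1.22 (adjusted p = 0.0731) were lost. Mki67 did not pass (-0.62 ± 0.43, adjusted p = 0.275), at log2 0.35 ± 0.33 in Ctrl and -2.43 ± 0.45 in LIRKO, and its interaction had an adjusted p of 0.136. Without Ctrl HFD libraries 1 and 2, 1 of the 29 fell, and with the pairs summed 3. Of 29 genes of S phase 4 fell, a share near the background of 11.7%, with medians of -0.20 in Ctrl and -0.18 in LIRKO. Among the 4 were Pcna (-0.61 ± 0.15), Mcm2 (-0.51 ± 0.13) and Fen1 (-0.71 ± 0.22). In the fit without Ctrl HFD libraries 1 and 2, they had -0.40 (adjusted p = 0.0392), -0.37 (adjusted p = 0.067) and -0.45 (adjusted p = 0.0803), and the call of Fen1 was lost in 5 of the 27 other settings. In the G1 list of 16, Ccnd1 (-0.66 ± 0.14) and Ccnd2 (-0.38 ± 0.12), cyclins D1 and D2, were among 3 that fell, and the inhibitor Cdkn1c (0.67 ± 0.22) rose. The call of Ccnd2 was lost in 7 and that of Cdkn1c in 12 of the 27 other settings. Neither had an unadjusted p under 0.05 within Ctrl (0.151 and 0.0528). Leaving out Ctrl HFD libraries 1 and 2 gave -0.54 for Ccnd2 (adjusted p = 0.00536) and 0.50 for Cdkn1c (adjusted p = 0.153).

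The ERK list had 3 rises and 4 falls among 16 (background 14.9% higher and 11.7% lower). Etv5 (an ETS factor induced by ERK signalling) is the gene whose diet change differed between genotypes. Etv5 stood at 4.35, 6.45 and 8.01 CPM as the lowest, median and highest of Ctrl chow, and at 4.67, 3.82, 5.33, 4.91 and 5.28 CPM in Ctrl HFD. LIRKO values of Etv5 were 19.3, 20.8, 24.1 and 24 CPM on chow and 4.01, 4.6 and 4.44 CPM on HFD. Ctrl groups overlapped, and LIRKO chow stood far above all other libraries while LIRKO HFD lay at the level of Ctrl HFD. Its changes were log2 -0.41 ± 0.15 in Ctrl and -2.34 ± 0.20 in LIRKO, a difference of -1.93 ± 0.24 (SE, adjusted p = 0.0051). With the LIRKO chow pairs summed the difference was -1.93 (adjusted p = 0.113), and without LIRKO HFD library 1 its adjusted p was 0.057. Spred2 fell (-0.79 ± 0.19) and Spry1 rose (1.43 ± 0.34), both inhibitors of the same pathway.

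Several genes outside the vessel and matrix groups rose as well. Depp1 (a target of FOXO factors and of fasting, ENSMUSG00000048489, chr6:116650609-116652794) rose in both genotypes. Depp1 stood at 5.19, 11.3 and 14.3 CPM as the lowest, median and highest of Ctrl chow, and at 37, 25.2, 23.4, 55.5 and 20.8 CPM in Ctrl HFD. LIRKO values of Depp1 were 20.9, 20.5, 24.2 and 21.2 CPM on chow and 53.4, 77.2 and 70.3 CPM on HFD. Every HFD library exceeded every chow library of its genotype. Depp1 was 3.09-fold higher on HFD (log2 1.63 ± 0.19, SE, adjusted p = 0.000241), with log2 1.63 ± 0.25 in Ctrl and 1.63 ± 0.31 in LIRKO. With the endothelial term it had 1.42 (adjusted p = 0.334).

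Cish (a feedback inhibitor induced by STAT5, downstream of prolactin and growth hormone, ENSMUSG00000032578, chr9:107296026-107302784) rose with little spread. Cish stood at 12.4, 15.4 and 16.2 CPM as the lowest, median and highest of Ctrl chow, and at 26.9, 20.1, 20.2, 27 and 19.2 CPM in Ctrl HFD. LIRKO values of Cish were 15.1, 14.3, 21 and 19.2 CPM on chow and 30.2, 34.3 and 33.9 CPM on HFD. The groups overlapped in neither genotype. Cish was 1.65-fold higher on HFD (log2 0.72 ± 0.10, SE, adjusted p = 0.000942). Socs2, another STAT5 target, had 0.58 ± 0.19 (adjusted p = 0.0314), but 0.28 (adjusted p = 0.204) without Ctrl HFD libraries 1 and 2, and its call was lost in 9 of the 27 other settings. In the lactogenic and serotonin list 2 of 16 rose and 2 fell.

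Immediate-early genes, induced within minutes by calcium, growth factors or handling, rose in 8 of 27 cases and fell in 1. Their median was 0.47, and the background was 14.9% higher and 11.7% lower. Egr2 (a zinc finger factor, ENSMUSG00000037868, chr10:67535475-67542188) is among the immediate-early genes that rose. Egr2 stood at 0.38, 1.09 and 1.5 CPM as the lowest, median and highest of Ctrl chow, and at 2.04, 1.68, 2.81, 4.06 and 1.53 CPM in Ctrl HFD. LIRKO values of Egr2 were 0.612, 0.624, 0.679 and 0.576 CPM on chow and 1.8, 4.38 and 4.41 CPM on HFD. Both genotypes had HFD wholly above chow, with the lowest HFD value in Ctrl, 1.53 CPM, just above the highest chow value, 1.5. Egr2 was 3.25-fold higher on HFD (log2 1.70 ± 0.30, SE, adjusted p = 0.0027). Ier2 (0.98 ± 0.19) and the synaptic gene Arc (1.2 ± 0.26) rose and Crem, a cAMP-responsive factor, fell (-0.72 ± 0.17). The isolation list, which shares Fos and Jun with this one, had a median of 0.51. The part of cell handling in these values was not tested.

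Dedifferentiation and progenitor genes rose in 4 of 16 cases and fell in 2 (median 0.35, background 14.9% higher and 11.7% lower). Cck (cholecystokinin, made by stressed or expanding beta cells in mice, ENSMUSG00000032532, chr9:121489824-121495694) rose from near 0. Cck stood at 0, 0.0301 and 0.0772 CPM as the lowest, median and highest of Ctrl chow, and at 0.546, 1.54, 0.207, 0.22 and 0.0528 CPM in Ctrl HFD. LIRKO values of Cck were 0.759, 0.823, 1.34 and 1.1 CPM on chow and 1.8, 8.52 and 6.11 CPM on HFD. Ctrl groups overlapped at 0.0528 to 0.0772 CPM, and LIRKO chow lay above 4 of 5 Ctrl HFD libraries. Cck was 7.97-fold higher on HFD (log2 2.99 ± 0.54, SE, adjusted p = 0.00292), from few reads in Ctrl. Sox4 (1.05 ± 0.26) and Hes1 (0.53 ± 0.13), factors of the endocrine progenitor, rose. Ctrl HFD libraries 1 and 2 read 43.1 and 47.1 CPM of Sox4, above all other Ctrl libraries, and without them its change was 0.51 (adjusted p = 0.0671), so that the call was lost. Aldh1a3, often used as a mark of failing beta cells, did not pass (adjusted p = 0.326) and went apart in value, at log2 1.62 ± 0.60 in Ctrl and -0.80 ± 0.74 in LIRKO.

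Npy (neuropeptide Y, a peptide of immature beta cells, ENSMUSG00000029819, chr6:49822710-49829507) went the other way and had the smallest adjusted p of the fixed genes. Npy stood at 1.67, 5.26 and 6.71 CPM as the lowest, median and highest of Ctrl chow, and at 0.397, 0.559, 0.414, 0.567 and 0.37 CPM in Ctrl HFD. LIRKO values of Npy were 1.05, 1.05, 1.14 and 1.32 CPM on chow and 0.029, 0.109 and 0.125 CPM on HFD. The highest HFD value of each genotype was below the lowest chow value, though the levels are low in all groups. Npy was 10.9-fold lower on HFD (log2 -3.45 ± 0.27, SE, adjusted p = 1.97e-06), or log2 -3.38 ± 0.34 in Ctrl and -3.61 ± 0.49 in LIRKO.

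Genes that beta cells normally keep silent rose in 8 of 21 cases and fell in 2 (background 14.9% higher and 11.7% lower). Their median was 0.65 (0.55 in Ctrl and 0.98 in LIRKO). Rest (the repressor of neuronal and endocrine genes, ENSMUSG00000029249, chr5:77265491-77286432) is an example at low level. Rest stood at 0.253, 0.992 and 1.31 CPM as the lowest, median and highest of Ctrl chow, and at 1.69, 2.28, 2.13, 2.3 and 0.819 CPM in Ctrl HFD. LIRKO values of Rest were 0.465, 0.374, 1.52 and 1.24 CPM on chow and 1.77, 2.62 and 2.36 CPM on HFD. In LIRKO chow, libraries 1 and 2 lay well below HFD and libraries 3 and 4 closer to it, as their endothelial sums did. Rest was 2.21-fold higher on HFD (log2 1.14 ± 0.31, SE, adjusted p = 0.0163), and 1 other setting ended that call. Zfp36l1, which binds and destabilises mRNAs (1.57 ± 0.39), and Arhgdib, a GTPase inhibitor of blood cells (1.23 ± 0.34), rose. With Ctrl HFD libraries 1 and 2 left out and the pairs summed, none of the list passed. None passed with the endothelial term either, at a median of 0.24, with Zfp36l1 at 0.28 and Arhgdib at 0.23.

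The activin, BMP and Id list had the highest share of rises among the process lists, 11 of 28 with 1 fall. Its median was 0.20, and the background was 14.9% higher. Id1 (an inhibitor of helix-loop-helix factors, induced by BMP, ENSMUSG00000042745, chr2:152736251-152737410) rose. Id1 stood at 0.475, 1.31 and 2.27 CPM as the lowest, median and highest of Ctrl chow, and at 6.26, 4.75, 3.4, 4.85 and 1.9 CPM in Ctrl HFD. LIRKO values of Id1 were 0.318, 0.499, 2.3 and 1.45 CPM on chow and 4.62, 5.89 and 4.23 CPM on HFD. Ctrl overlapped through HFD library 5 at 1.90 CPM, and LIRKO chow libraries 3 and 4 again lay above 1 and 2. Id1 was 3.61-fold higher on HFD (log2 1.85 ± 0.36, SE, adjusted p = 0.00436). Smad6 (1.37 ± 0.26), which restrains BMP signals, the ligand gene Tgfb1 (1.24 ± 0.26), Id3 (1.29 ± 0.29) and the activin subunit gene Inhbb (1.86 ± 0.50) rose. Inhbb was at 1.74 (adjusted p = 0.0512) without Ctrl HFD libraries 1 and 2. With the endothelial term no member passed, the median was -0.03, and Inhbb turned to -0.10 (adjusted p = 0.903).

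The remaining lists were near the background (14.9% higher and 11.7% lower) or split. In cell adhesion and axon guidance 10 of 34 rose and 4 fell, with falls in Cdh8 (-1.26 ± 0.27) and Robo2 (-0.72 ± 0.16). Of 25 potassium channels 4 fell and none rose, among them Kcnj5 (-1.34 ± 0.36) and Kcnj12 (-1.24 ± 0.33), the latter at -1.0 (adjusted p = 0.0581) without Ctrl HFD libraries 1 and 2. Of 28 calcium, sodium and TRP channels 8 rose and 3 fell, with the sodium channel Scn3a at 0.77 ± 0.15. In NF-kB inflammation and senescence 2 of 24 rose and 2 fell. The clock list had 3 rises and 6 falls among 21, with Clock (-0.48 ± 0.11) and Cry1 (-0.65 ± 0.16) lower and Per3 (0.93 ± 0.23) and Csnk1e (0.52 ± 0.14) higher. Csnk1e was at 0.31 (adjusted p = 0.04) without Ctrl HFD libraries 1 and 2.

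The number of shared genes moved with the libraries used, and the number that held throughout was smaller. Across the 27 other settings, 324 genes stayed shared (6.30% of the 5139), 199 higher and 125 lower. Of the 24 genes given above by library, other than Etv5, 20 did. The exceptions were Hspa5, Tars, Rest and Pecam1. Without Ctrl HFD libraries 1 and 2, 1790 genes were shared, with the LIRKO chow pairs summed 2814, and with both changes 417, of which 410 were among the 5139.

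**Figure D5:**
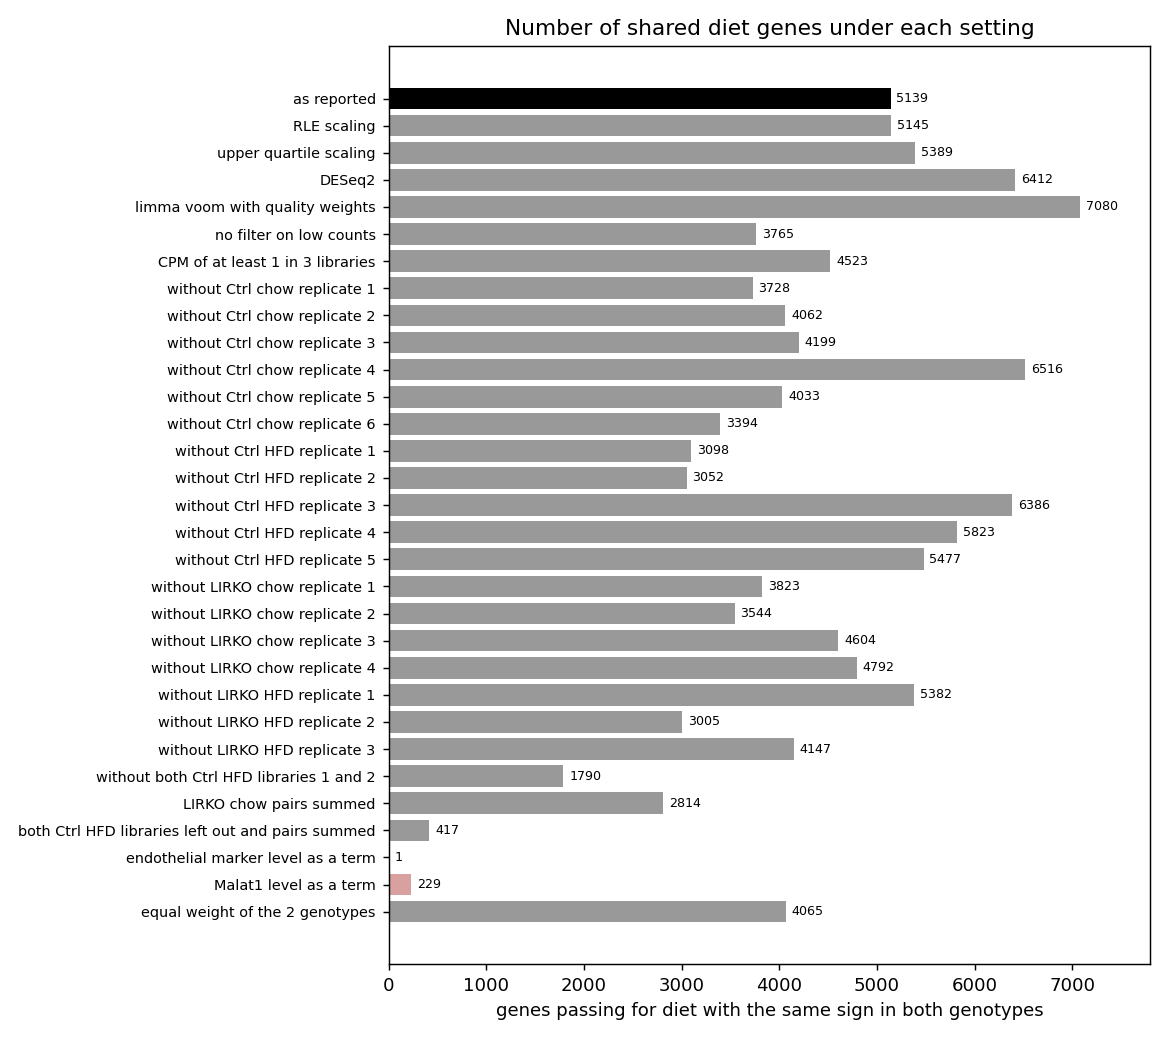
The number of shared diet genes (x axis) is drawn for each setting, with the reported value in black, other settings in grey and those chosen after seeing the data in pale red. Most settings give between 3005 and 7080 genes, against 2814 with the LIRKO chow pairs summed, 1790 without Ctrl HFD libraries 1 and 2, 417 with both of these changes, 229 with Malat1 as a term and 1 with the endothelial level as a term.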

How the data were processed

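The deposited table holds raw read counts per Ensembl gene ID, which the authors made with STAR and featureCounts on GRCm38, per the submitters' processing notes; the sources used here give no versions, annotation or strand option. Libraries were directional and made from total RNA, per the labels' protocols. IDs were named with GENCODE M21, and 52489 of 53090 matched; the other 601 held at most 0.0176% of counts. Genes passing filterByExpr (19284) were scaled by TMM and tested with edgeR 4.0.16 in R 4.3.3 (glmQLFit and glmQLFTest, two-sided, Benjamini-Hochberg over all genes, 0.05), with terms for genotype and diet. A fit with 1 coefficient per group gave the changes within each genotype and their interaction. SEs are the log2 change over the root of F. Replicate numbers follow sample order.

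Members, libraries to leave out and gene lists were chosen with earlier results of these data known. Lists carry no test and are given beside all genes. Named genes are the 15 largest rises and falls of the stricter set with mean log2 CPM of at least 2, up to 4 passing members per list with the smallest p, the most abundant markers, the smallest interaction p-values and a fixed set of beta cell genes, of which those needed are used; those in the closing observations were chosen after their values were seen. Some genes of this rule are not reported here. The test was checked on simulated counts drawn independently for each library, without near-identical pairs, outlying libraries or shifts in cell content. That check does not cover those features of these libraries. Alternatives used DESeq2 1.42.0 and limma 3.58.1 (voom with quality weights), other scalings and filters, and left-out or summed libraries.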

Additional observations from a re-analysis of the deposited data

Results flagged for a closer look

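Each named gene was examined in each group of 4 to 6 libraries, 432 pairs of a gene and a group in all. In 30 of them the highest or lowest library lay far from the others by Dixon's ratio, and chance alone marks about 1 pair in 20. Ctrl chow library 3 was high for Mgp (17.9 CPM), Emcn (14.5), Eng (16.9), Col15a1 (9.50), Plvap (18.9), Esm1 (61.4), Thbs1 (69.5), Epas1 (13.5), Egfl7 (11.1) and Nes (7.49), genes of vessels and matrix, and its endothelial sum was the highest of that group. It was also high for Igf1 (0.901), Mgll (1.60), Smad6 (4.17), Aldh1a3 (21.1) and Sgk1 (25.8). Ctrl HFD library 4 was high for the mitotic genes Tpx2 (2.55), Bub1 (0.504), Nuf2 (1.13) and Mki67 (9.79), for Ttyh1 (26.2) and Pik3cd (6.30), and low for Lpl (113). Ctrl HFD library 5 was high for Pard6g (15.1) and low for Igf1 (0.317). In Ctrl chow, library 6 was high for Chac1 (108), library 1 for Crem (56.5) and Txnrd1 (495) and library 4 for Hes1 (11.7), while library 4 was low for Spred2 (8.14). LIRKO chow library 2 was high for Tubb3 (31.5 against 28.7 to 29.0). The diet change of Etv5 differed between genotypes by -1.93 on the log2 scale in the interaction test.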

How the results depend on the processing

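No paired analysis was possible because the labels carry no replicate numbers. The LIRKO comparison rests on 7 libraries. Leaving out 1 library at a time moved the additive count from 3014 to 6527 and the shared count from 3005 to 6516, with a change of over 1.5 times without Ctrl chow 6 (3395 and 3394), Ctrl HFD 1 (3099 and 3098), Ctrl HFD 2 (3053 and 3052) and LIRKO HFD 2 (3014 and 3005). The stricter set ranged from 907 to 1938, lowest without LIRKO HFD 2. Counts within Ctrl ranged from 69 to 3877, within LIRKO from 55 to 502, in both from 17 to 164, and for the interaction from 0 to 3 (0 without LIRKO HFD 1). The Ctrl count moved by over 1.5 times without each library other than libraries 3 of Ctrl chow, 4 of Ctrl HFD, 2 of LIRKO chow and 1 of LIRKO HFD, and the LIRKO count without LIRKO chow 1 or 2 or any LIRKO HFD library. Without Ctrl HFD 1 and 2 the counts were 1790 additive and shared, 34 in Ctrl, 1191 in LIRKO, 14 in both and 8 for the interaction. With the LIRKO chow pairs summed they were 2818 additive, 2814 shared, 849 in the stricter set, 114 in Ctrl, 7 in LIRKO, 2 in both and 0 for the interaction. With both changes they were 417 additive and shared, 367, 1, 59, 1 and 2 in the same order. DESeq2 gave 3910 in Ctrl, 1059 in LIRKO, 418 in both and 42 for the interaction, limma voom 73, 6104, 47 and 43, and no filter 457, 250 and 34. Terms chosen after seeing the data gave 1 additive and shared gene (endothelial level), and 234 additive and 229 shared (Malat1). The cause of these shifts was not tested. Upper quartile scaling shifted the median of all genes to 0.17 and made 78.2% of 5398 calls higher, against 56.1% as reported, with 4219 higher and 1179 lower, whereas RLE gave 58.5%. Outside those terms, signs turned for genes that had not passed: Nkx6-1 to -0.02 without Ctrl HFD 1 and 2 and to -0.10 with the pairs also summed, Insr to 0.07 and 0.10 in the same settings and to 0.02 with upper quartile scaling, and Aldh1a3 to -0.14 with limma voom. With the endothelial term Inhbb, which had passed, turned to -0.10, and with Malat1 as a term Nkx6-1 turned to -0.29, Glp1r to 0.36, Insr to 0.15 and Cpt1a to 0.10. Over the 144 named genes, 3716 of the recomputed calls stood, 151 were lost, 15 were gained and 6 turned sign, those terms left out.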

Other observations

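Tubulin genes, a group chosen after its values were seen, fell with the ER genes. Of 15 tested, 10 were shared and lower and none higher (background 11.7% lower), with a median log2 change of -0.52. Tubb3, the beta tubulin of neurons and endocrine cells, stood at 25.3 to 47.2 CPM on chow against 13.8 to 21.4 on HFD for Ctrl, and at 28.7 to 31.5 against 16.7 to 18.3 for LIRKO, with no overlap in either genotype (1.89-fold lower on HFD (log2 -0.92 ± 0.13, SE, adjusted p = 0.000755)). Tubb4b (-0.79 ± 0.11), Tubb2a (-0.76 ± 0.14), Tuba1b (-0.82 ± 0.17) and Tuba4a (-0.60 ± 0.13) stayed shared with it under all 27 other settings. Without Ctrl HFD libraries 1 and 2, 8 fell, with those left out and the LIRKO chow pairs summed 5, and with the endothelial term none, at a median of -0.37.

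Other genes that held under all 27 settings were picked in the same way. Nptx2, a secreted pentraxin of synapses, had the largest fall among those named (14.6-fold lower on HFD (log2 -3.87 ± 0.54, SE, adjusted p = 0.000755)), with 1.75 to 30.5 CPM on chow against 0.279 to 3.15 on HFD for Ctrl, and 7.45 to 9.08 against 0.029 to 0.777 for LIRKO. Cth and Cbs, the enzymes that turn homocysteine into cysteine, both fell (log2 -1.64 ± 0.29 and -0.90 ± 0.17), as did the fumarase gene Fh1 (-1.10 ± 0.14) and Tmem215 (-1.15 ± 0.14). Rflna (1.19 ± 0.13), the kinase gene Sgk1 (1.00 ± 0.19) and Apoe, the apolipoprotein of macrophages and other cells (1.16 ± 0.25), rose. These values have no independent set of libraries behind them.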
